A study of Mus musculus with 7 samples.

Results

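The genes described here are 10 mouse genes that mark the granulocyte and monocyte lineages: Mpo, Elane, Prtn3 and Ctsg of the azurophil granule, the calcium-binding S100a8 and S100a9, the lysozyme gene Lyz2, Plac8, Ms4a3 and the transcription factor gene Cebpa. They were chosen by name, and every array probe annotated to them was taken. All 10 genes had a probe, out of 16593 genes named on the array, and together they had 15 of the 25697 probes. The probes were read in megakaryocyte-erythroid progenitors, a sorted progenitor that gives rise to platelets and red cells and not to granulocytes. The sort was for low lineage markers, c-Kit present, Sca-1 absent, and low CD34 and CD16/32, per the labels. The samples fell into 3 arrays from female C57BL/6 mice labelled as knockouts of SSB1 and SSB2 (DKO 1 to DKO 3) and 4 arrays from wild-type female C57BL/6 mice, labelled as controls (Control 1 to Control 4). The alleles, any Cre driver, the age of the mice, the tissue sorted and whether each array came from a separate mouse could not be read from the labels used here. The p-values below therefore measure the spread between arrays, which may in part be technical.

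Azurophil granules are the lysosome-like stores that a neutrophil or monocyte precursor fills early, at the promyelocyte stage. They hold myeloperoxidase together with the serine proteases neutrophil elastase, proteinase 3 and cathepsin G, and their genes are among the first to be read as a progenitor commits to the granulocyte-monocyte fate. Specific and gelatinase granules are filled later, and S100a8 and S100a9 encode the abundant cytosolic proteins of mature neutrophils and monocytes. The C/EBP and PU.1 transcription factors drive this program, while GATA1 drives the erythroid and megakaryocytic one.

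Of the 10 genes, 9 were tested, and 5 of them rose in DKO: Mpo, Ctsg, S100a8, Plac8 and Ms4a3. Lyz2 fell. Elane, Prtn3 and S100a9 did not pass the test, and Cebpa was not measured above background on enough arrays to be tested. The test was limma's moderated test on log2 normalised signals adjusted by Benjamini-Hochberg across the 7547 tested genes, at a threshold of 0.05. Across those genes 27.2% were called, 14.4% higher and 12.8% lower, so that a call in itself was common in this comparison. The values of DKO and control arrays did not overlap for 6 of the 9 tested members, against 38.5% of all genes tested. The median change of the 9 tested members was 1.12 on the log2 scale, where the median over all genes was 0.01. Ms4a3 entered the test through the DKO arrays alone and so had to be higher there. The median of the members is the value of Ms4a3 itself. These counts and the median are descriptions.

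**Figure D1:**
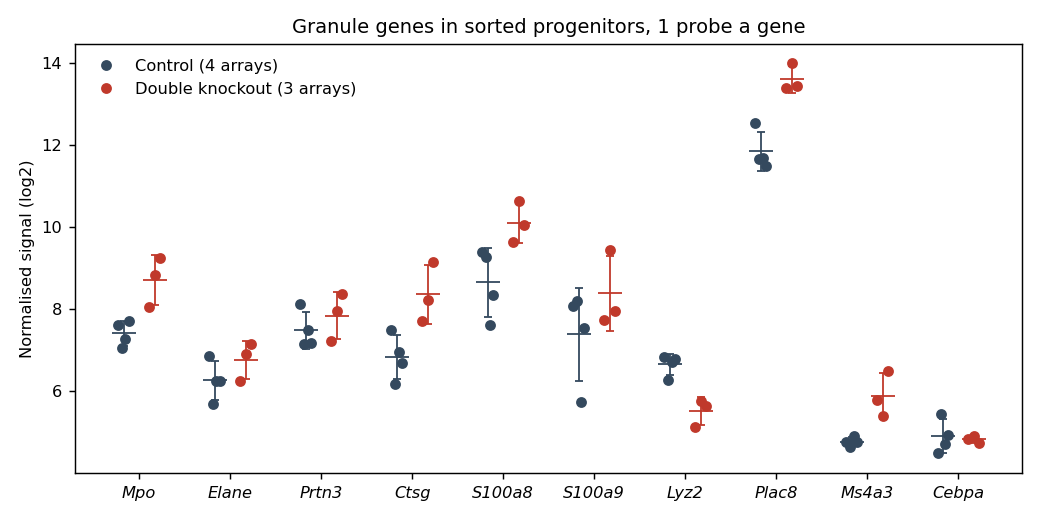
Log2 normalised signal of each of the 10 genes (1 probe a gene, the one with the highest mean where several were kept) on each array, with control arrays dark and DKO arrays red. Points are arrays, and the horizontal bar and whisker are the group mean and SD (n = 4 control, n = 3 DKO). The DKO points lie above all control points for Mpo, Ctsg, S100a8, Plac8 and Ms4a3 and below them for Lyz2.

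Some properties of the arrays bear on every value below. The DKO arrays were brighter before normalisation, with mean signals of 651 to 670 against 443 to 615 in controls, and 41.2% to 43.4% of probes were above background on them against 36.6% to 40.3%. The number of arrays and the height of a signal over background limit the precision here. With array brightness as a covariate, 0.689% of genes were called and limma called 0 of the 9 members, with 3 higher and 1 lower at an unadjusted p under 0.05. The members' changes in that fit were 0.90 for Mpo, 1.47 for Ctsg, 1.21 for S100a8, 1.81 for Plac8, 1.16 for Ms4a3 and -1.31 for Lyz2. Brightness, taken as the mean signal, did not overlap between the groups, so brightness and genotype cannot be told apart. The median signals did overlap, at 138 to 144.3 in DKO and 123.4 to 144 in controls. The targeted genes were checked first. Nabp2, the current name of Ssb1, had values of 7.13, 7.09 and 7.05 on the DKO arrays and 9.35, 9.17, 8.60 and 9.38 on the control arrays, 4.11-fold lower in DKO (limma, adjusted p = 0.000203). Nabp1, the current name of Ssb2, was not above background on any array, so its probe checks nothing, and whether a probe lies in a deleted part was not tested. Of 21 tested genes of megakaryocyte-erythroid identity, 4 rose and 3 fell, against 14.4% and 12.8% of all genes tested. The erythroid factors Gata1 (log2 change -0.48, adjusted p = 0.0524) and Klf1 (-0.32, adjusted p = 0.0522) were above background on all arrays, had groups that did not overlap, and passed the test in several of the alternatives but not here. Scaled on the median of all probes, Gata1 turned to 0.19 (adjusted p = 0.508) and Klf1 was near 0 (adjusted p = 0.995). These arrays hold bulk RNA, in which fewer cells of a type and less RNA per cell cannot be told apart.

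Among the azurophil genes, Mpo and Ctsg rose while Elane and Prtn3 did not pass the test. Mpo makes hypochlorous acid from hydrogen peroxide and chloride. On its brightest probe its log2 signal was 8.05, 8.84 and 9.25 on DKO 1, DKO 2 and DKO 3 and 7.61, 7.06, 7.28 and 7.72 on the 4 control arrays. All 3 DKO values lay above all control values, and DKO 1 was the closest to them. The change was 1.30 (SE 0.27), a 2.45-fold rise with adjusted p = 0.00919, and it ranked 95 among the rises of all 7547 genes. The deposited signals behind it, before normalisation, ran from 475 to 900.5 in DKO and from 196.5 to 347.6 in controls.

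The other 2 Mpo probes were above background on all DKO arrays and on no control array. ILMN_2925094 read 5.50, 5.88 and 6.33 in DKO and 4.74, 4.76, 4.81 and 4.88 in controls. Against the lowest level that counted as above background on the control arrays, its DKO mean was at least 1.57-fold higher (limma over all kept probes, adjusted p = 0.0041). ILMN_2719256 read 5.14, 5.20 and 5.04 in DKO and at most 4.83 in controls, a change of 0.42 (adjusted p = 0.0306) too close to background for a fold. Both dim probes entered the test through the DKO arrays alone and so had to be higher there, and they add nothing to the bright probe.

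Ctsg, the serine protease cathepsin G, read 7.72, 8.22 and 9.15 in DKO and 7.49, 6.19, 6.96 and 6.69 in controls. Its groups did not overlap, and the gap between DKO 1 and Control 1 was 0.23. The change of 1.53 (SE 0.36) was a 2.89-fold rise (limma, adjusted p = 0.0144).

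Elane, neutrophil elastase, did not pass the test. It read 6.25, 6.91 and 7.15 in DKO and 6.87, 5.70, 6.26 and 6.25 in controls. Control 1 and Control 3 lay within the DKO range, Control 4 was level with DKO 1 at 6.25, and DKO 1 lay within the control range. The change of 0.50 had a 95% confidence interval from -0.13 to 1.13 (limma, adjusted p = 0.213). The interval includes 0.

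Prtn3, the third protease and the gene next to Elane on chromosome 10, read 7.22, 7.95 and 8.37 in DKO and 8.13, 7.16, 7.49 and 7.19 in controls. Its groups overlapped over most of their range. The change was 0.35, with a 95% confidence interval from -0.32 to 1.03 (limma, adjusted p = 0.408). Without DKO 3 it was 0.09, and without Control 1 it was 0.57, neither of which passed the test.

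Within single arrays, Mpo and Ctsg stood higher against Elane and Prtn3 in DKO than in controls. The log2 signal of Mpo minus that of Elane was 1.80, 1.93 and 2.10 on the DKO arrays and 0.73, 1.37, 1.02 and 1.47 on the control arrays. Ctsg minus Prtn3 was 0.51, 0.27 and 0.78 in DKO and -0.64, -0.97, -0.53 and -0.50 in controls. Neither difference overlapped between the groups, whereas Elane minus Prtn3 did, at -1.22 to -0.97 in DKO and -1.47 to -0.94 in controls. The size of such a difference also depends on the probes, so only its shift between groups is read. That shift describes the normalised signals of these probes and does not show that either gene was unchanged. These pairs were chosen after their values were seen, and no test is given for them.

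**Figure D2:**
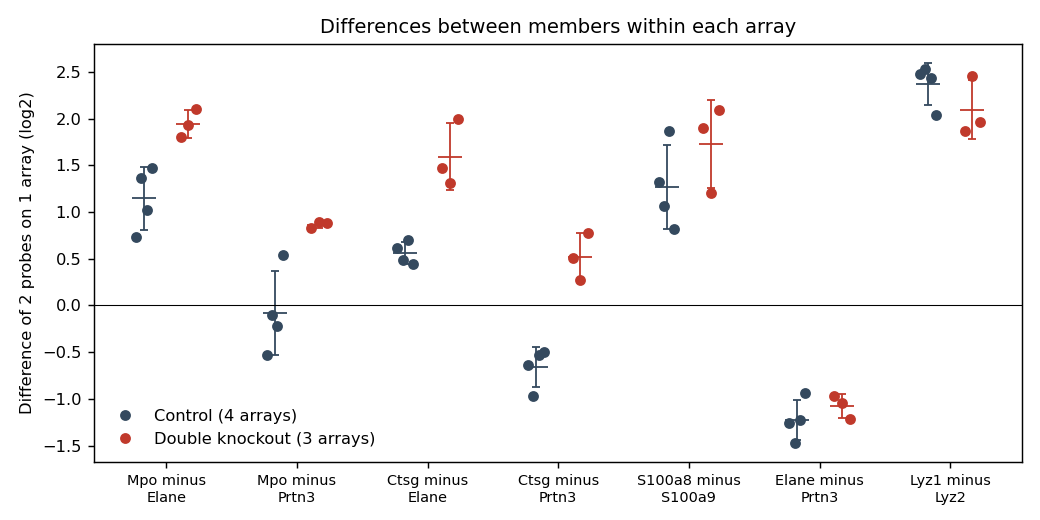
Difference in log2 normalised signal between a pair of probes on the same array, for 7 gene pairs, with control arrays dark and DKO arrays red. Points are arrays, and the bar and whisker are the group mean and SD (n = 4 and n = 3). The pairs that set Mpo or Ctsg against Elane or Prtn3 do not overlap between groups (Ctsg minus Prtn3 0.27 to 0.78 against -0.97 to -0.50), while S100a8 minus S100a9, Elane minus Prtn3 and Lyz1 minus Lyz2 do.

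Array by array, the 4 azurophil genes moved together inside each group. Their mean deviation from the group mean was -0.61, 0.06 and 0.55 on DKO 1, DKO 2 and DKO 3 and 0.52, -0.48, 0.00 and -0.04 on the control arrays. DKO 1 was thus low and DKO 3 high for the whole set, and Control 1 was high and Control 2 low. Centred in this way over the 7 arrays, Elane and Prtn3 correlated at 0.929, Elane and Ctsg at 0.934, Prtn3 and Ctsg at 0.935 and Mpo with these 3 at 0.746 to 0.820. These are descriptions over 7 arrays whose genes share RNA sample, array and brightness. Lyz2, which fell in DKO, followed the same arrays, at 0.724 to 0.879 with each of the 4 and 0.835 with their mean, so this variation was not particular to the azurophil genes. The 5 other genes of all those tested whose centred values were most like the mean of these 4 were Guk1 (r = 0.989), Zfp521 (0.983), Sec11a (0.971), Tsen15 (0.969) and Gzmn (0.968), each picked from 7543 genes over 7 arrays. Their own changes between groups differed in sign, from -0.42 for Guk1 (limma, adjusted p = 0.0313) to 0.58 for Zfp521 (adjusted p = 0.0741).

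Because the 4 azurophil genes varied together, the 250 bases before their annotated starts are shown, 5′ to 3′ on the strand of the gene, from RefSeq with coordinates of GRCm38.p6. The lysozyme genes Lyz2 and Lyz1, described further on, are shown with them as a pair of neighbours that fell. Capitals mark AGGAAGT on either strand, a motif of the type bound by ETS factors such as PU.1.
Mpo (chr11:87793534-87793783, plus strand): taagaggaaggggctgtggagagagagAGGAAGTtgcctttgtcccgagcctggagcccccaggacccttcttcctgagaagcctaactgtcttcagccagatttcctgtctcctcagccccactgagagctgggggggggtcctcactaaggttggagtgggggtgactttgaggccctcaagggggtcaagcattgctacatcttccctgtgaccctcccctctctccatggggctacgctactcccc
Elane (chr10:79886062-79886311, plus strand): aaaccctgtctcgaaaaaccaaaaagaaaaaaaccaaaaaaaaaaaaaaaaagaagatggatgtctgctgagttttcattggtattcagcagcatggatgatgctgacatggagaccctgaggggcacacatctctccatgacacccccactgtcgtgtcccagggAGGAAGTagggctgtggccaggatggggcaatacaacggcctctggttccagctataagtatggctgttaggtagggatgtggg
Prtn3 (chr10:79879417-79879666, plus strand): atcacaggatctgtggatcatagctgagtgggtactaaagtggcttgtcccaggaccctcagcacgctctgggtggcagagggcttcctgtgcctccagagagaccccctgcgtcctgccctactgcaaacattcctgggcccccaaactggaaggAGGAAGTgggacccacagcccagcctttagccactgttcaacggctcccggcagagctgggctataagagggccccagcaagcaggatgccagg
Ctsg (chr14:56102575-56102824, minus strand): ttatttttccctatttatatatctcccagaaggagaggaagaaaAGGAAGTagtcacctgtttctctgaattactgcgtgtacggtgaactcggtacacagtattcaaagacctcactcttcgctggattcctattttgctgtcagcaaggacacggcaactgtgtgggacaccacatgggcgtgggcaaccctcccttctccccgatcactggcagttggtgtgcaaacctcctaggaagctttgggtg
Lyz2 (chr10:117282273-117282522, minus strand): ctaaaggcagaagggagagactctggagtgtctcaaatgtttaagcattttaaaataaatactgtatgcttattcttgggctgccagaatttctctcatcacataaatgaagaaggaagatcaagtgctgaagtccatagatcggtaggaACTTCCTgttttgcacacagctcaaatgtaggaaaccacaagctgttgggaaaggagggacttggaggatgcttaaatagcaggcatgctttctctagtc
Lyz1 (chr10:117292869-117293118, minus strand): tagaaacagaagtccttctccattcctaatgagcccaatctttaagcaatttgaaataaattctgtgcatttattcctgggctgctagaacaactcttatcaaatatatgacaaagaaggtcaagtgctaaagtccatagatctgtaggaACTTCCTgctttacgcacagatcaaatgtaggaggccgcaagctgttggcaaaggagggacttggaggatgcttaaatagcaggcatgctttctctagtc

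The motif began 223 bases before the start in Mpo, 84 in Elane, 94 in Prtn3 and 206 in Ctsg, each time on the strand of the gene. It was therefore held alike by the azurophil genes that rose and by those that did not pass the test. In both lysozyme genes it stood on the opposite strand, 100 to 94 bases before the start, and the last 50 bases before the start were identical between them (152 of 250 bases without gaps). Of the 10 genes, 6 held it in these 250 bases, the 5 shown and S100a8, and the share over 32851 mouse promoters of the same length was 7.69%. The C/EBP-type motif TTGCNNAA was found in 2 of the 10 genes, S100a9 and a second promoter of Plac8, against 9.56% of promoters. The GATA motif AGATAA was found in S100a9 alone of the 10, against 9.99% of promoters. Motifs were searched on both strands, do not overlap one another in these windows and were chosen after the sequences had been read. A match of letters is a description and not a binding site.

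S100a8 rose and S100a9 did not pass the test. Their products pair into calprotectin, and their genes are neighbours on chromosome 3. S100a8 read 9.64, 10.63 and 10.06 in DKO and 9.39, 9.28, 7.61 and 8.36 in controls. All DKO values lay above all control values, by 0.25 at the closest. The change of 1.45 (SE 0.41) was a 2.74-fold rise with adjusted p = 0.0298. This call rested on few arrays: the adjusted p was 0.101 without DKO 2, 0.073 without DKO 3 and 0.0639 without Control 4.

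S100a9 read 7.75, 9.44 and 7.97 in DKO and 8.07, 8.21, 5.74 and 7.54 in controls. DKO 2 was high, Control 3 was low, and the remaining arrays of both groups overlapped. The change was 0.99, with a 95% confidence interval from -0.34 to 2.33 (limma, adjusted p = 0.24). It was 0.44 without Control 3 and 0.46 without DKO 2.

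The S100 genes followed a different order of arrays from the azurophil genes. S100a8 and S100a9 correlated at 0.936 with each other after centring, and at -0.117 to 0.366 with the 4 azurophil genes over the same 7 arrays. S100a8 deviated by 0.52 on DKO 2 and -1.05 on Control 3, where the azurophil mean deviated by 0.06 and 0.00.

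**Figure D3:**
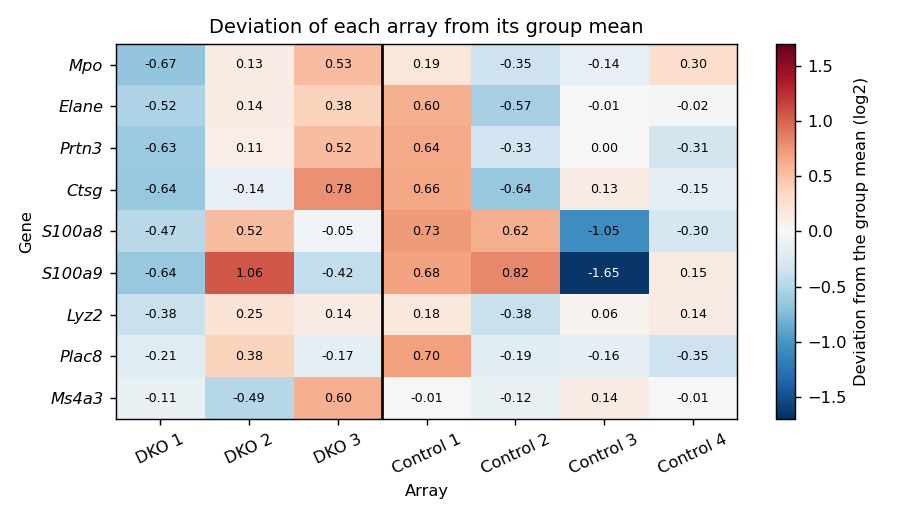
Deviation of each array's log2 normalised signal from the mean of its own group, for the 9 tested genes (rows) on the 7 arrays (columns, DKO left of the line). Blue is below and red above the group mean. Mpo, Elane, Prtn3 and Ctsg are low on DKO 1 and high on DKO 3, while S100a8 and S100a9 are high on DKO 2 and low on Control 3 (S100a9 -1.65).

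Plac8, a small cysteine-rich protein gene read in granulocytes and in early multipotent progenitors, had the largest rise of the 10 as normalised here, while under both median scalings Ctsg and S100a8 rose more (2.16 and 2.08 against 2.05 for Plac8 with scaling on all probes). Its log2 signal was 13.39, 13.99 and 13.43 in DKO and 12.55, 11.66, 11.69 and 11.50 in controls. The groups were separated by 0.84, with Control 1 the highest of the controls. The change of 1.75 (SE 0.26) was a 3.37-fold rise (limma, adjusted p = 0.00222), rank 45 among the rises of all genes tested. It was visible before normalisation, with deposited signals of 12461.8 to 18019.4 in DKO against 2386.2 to 5793.3 in controls.

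Ms4a3, a membrane protein gene used in mice to mark the granulocyte-monocyte progenitor and its offspring, was above background on every DKO array and on no control array. Its brighter probe read 5.78, 5.40 and 6.49 in DKO and 4.76, 4.65, 4.91 and 4.76 in controls. The DKO mean was at least 1.56-fold higher than the lowest level above background on the controls (limma, adjusted p = 0.00797). The other probe, ILMN_1250529, read 5.37, 5.28 and 5.90 in DKO and 4.47 to 4.93 in controls, at least 1.20-fold higher (limma over all kept probes, adjusted p = 0.0105). All of these values lay near background, and with arrays scaled on the probes above background on all arrays, the gene's change was 0.66 and did not pass the test (adjusted p = 0.105).

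Lyz2, the lysozyme of macrophages and granulocytes, went the other way. Its brightest probe read 5.14, 5.77 and 5.65 in DKO and 6.84, 6.28, 6.72 and 6.80 in controls. No DKO value reached the lowest control value. The change was -1.14 (SE 0.19), 2.21-fold lower in DKO (limma, adjusted p = 0.00385). The fall was not visible before normalisation, since the deposited signals overlapped at 157.9 to 179.1 in DKO and 159.5 to 239.3 in controls. Without background correction the change was -0.44, which still passed the test (adjusted p = 0.00414).

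The other Lyz2 probes were weaker. ILMN_1252076 read 5.03, 5.45 and 5.44 in DKO and 6.24, 6.25, 5.70 and 5.28 in controls, so its groups overlapped, and its change of -0.56 did not pass the test (limma over all kept probes, adjusted p = 0.117). ILMN_2766780 was not above background on any array. Lyz1, the neighbouring and near-identical lysozyme gene of Paneth cells and some myeloid cells, is not one of the 10 but can share signal with Lyz2. It read 7.0, 8.23 and 7.62 in DKO and 9.32, 8.81, 9.16 and 8.84 in controls, 2.67-fold lower in DKO (limma, adjusted p = 0.00554). Its other 2 probes were not above background on any array. Which of the lysozyme genes each probe measured is uncertain.

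Cebpa encodes C/EBP alpha, which is needed to form granulocyte-monocyte progenitors. Its probe was above background on Control 2 alone, at 5.46. It read 4.85, 4.92 and 4.73 in DKO and 4.49, 4.72 and 4.94 on the other control arrays. No change could be measured for this gene at this signal.

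At the level of probes, 13 of the 15 were kept, 9 of them above background on all arrays. Of the 13, 8 were called higher and 1 lower, where 13.3% of all kept probes were called higher and 12.7% lower. The members that passed the filter through the DKO arrays alone, Ms4a3 and the 2 dim Mpo probes, had to be higher there, and their part of the count supports nothing.

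**Figure D4:**
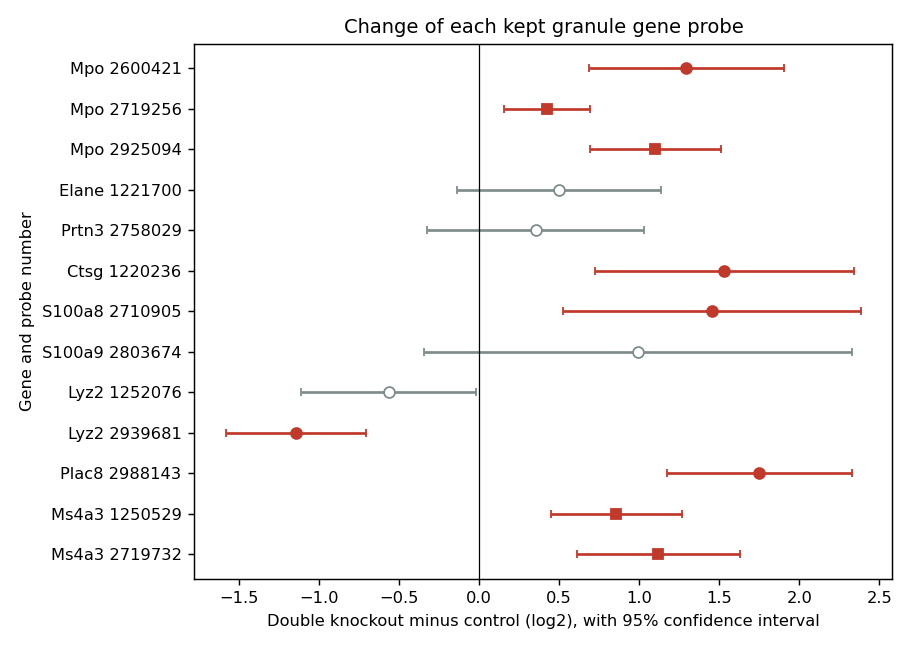
Log2 change, DKO minus control, of each of the 13 kept probes with its 95% confidence interval from limma. Filled red marks an adjusted p under 0.05 over all kept probes, open grey does not, and squares are probes above background on no control array, whose change is not a bound. Mpo, Ctsg, S100a8, Plac8 and Ms4a3 lie above 0, Lyz2 lies below it (-1.14 and -0.56), and the intervals of Elane, Prtn3 and S100a9 cross it.

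The scaling of the arrays moved the members as a group. Scaled on the median of all probes, the median gene stood 0.52 higher in DKO, 50% of genes were called higher and 1.54% lower, and 8 of the 9 members were called higher, Elane, Prtn3 and S100a9 included. Scaled on the median of probes above background on all arrays, the median gene stood at -0.14, with 10.3% of genes called higher and 23.5% lower and 4 members called higher. The 2 median scalings differ by 1 constant for all genes, so values set against the median gene are the same under both. Set against it, Mpo was at 1.28 as reported and at 1.42 under median scaling, Ctsg at 1.52 and 1.64, Elane at 0.49 and 0.53, Prtn3 at 0.34 and 0.50, Plac8 at 1.74 and 1.53, and Ms4a3 at 1.11 and 0.81. Lyz2 was at -1.16 and -1.22 and was called lower under each scaling.

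**Figure D5:**
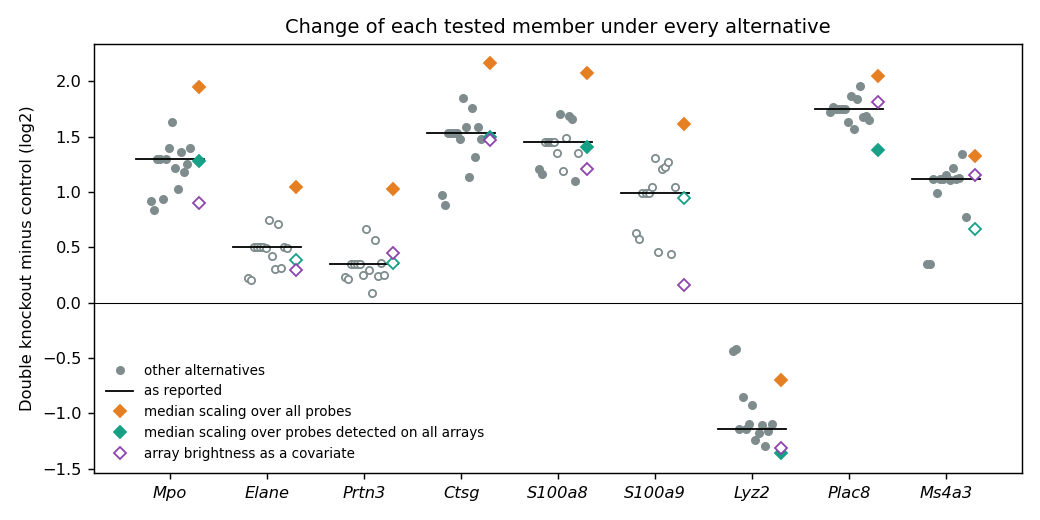
Log2 change, DKO minus control, of the 9 tested genes under every alternative. The black bar is the reported value, grey circles are the background, filter, probe, block and leave-one-array-out alternatives and the authors' processed values, and diamonds are the 2 median scalings and the brightness covariate. Filled symbols have an adjusted p under 0.05. Every symbol keeps the sign of its gene, and no brightness-covariate symbol is filled.

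Genes that work with the azurophil proteins changed in part. Of 7 tested, 3 rose and 1 fell, against 14.4% and 12.8% of all genes tested. Scaled on the median of all probes 6 rose and 0 fell, where 50% of all genes were called higher and 1.54% lower. Ctsc, the protease that activates elastase, cathepsin G and proteinase 3 by trimming them, read 8.87, 9.40 and 9.11 in DKO and 8.25 to 8.68 in controls, 1.63-fold higher (limma, adjusted p = 0.0129), and its other 2 probes were higher too at 0.99 and 0.71 on the log2 scale. Cd63, a granule and lysosome membrane protein that carries elastase to the granule, read 10.24, 10.87 and 10.77 in DKO and 10.19, 9.17, 9.08 and 9.25 in controls, 2.31-fold higher (adjusted p = 0.0121). Control 1 stood close to the DKO arrays for it, and 1 of its other 2 probes did not pass the test (0.71, limma over all kept probes, adjusted p = 0.0613). Man2b1, a lysosomal mannosidase, was 1.46-fold higher (adjusted p = 0.0206), a call lost without DKO 2 (adjusted p = 0.068) or DKO 3 (adjusted p = 0.0534). Serpinb6a, an inhibitor of cathepsin G, was 1.55-fold lower (adjusted p = 0.025), a call that was lost without any 1 of the DKO arrays or without Control 1 (adjusted p = 0.0501 to 0.0769) and a direction that turned under scaling on the median of all probes (0.03). Bpi, Serpinb1a and Serpinb10 were not above background on any array.

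Most genes of the later granule program were near or below background in both groups. Camp was an exception, above background on all 3 DKO arrays and on 3 of the 4 control arrays. Of 18 genes of the specific and gelatinase granules with a probe, 10 were above background on no array: Ngp, Mmp8, Itgb2l, Olfm4, Cd177, Stfa1, Stfa2, Stfa3, Anxa1 and Orm1. Of the 4 tested, limma called 0, with 1 at an unadjusted p under 0.05, and the values of each overlapped between groups. Haptoglobin, Hp, read 5.29, 5.47 and 5.74 in DKO and 4.59, 5.23, 5.32 and 4.99 in controls (change 0.47, adjusted p = 0.0992). The cathelicidin gene Camp read 5.01, 6.39 and 5.40 in DKO and 6.57, 6.42, 4.93 and 6.45 in controls (-0.49, adjusted p = 0.417). Among the phagocyte oxidase and other S100 genes limma likewise called 0 of 5 (1 at an unadjusted p under 0.05), with S100a10 at -0.52 (adjusted p = 0.106) and S100a6 at -0.40 (adjusted p = 0.282), and Cybb, the catalytic oxidase subunit, was not above background on any array.

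Some monocyte genes fell, and most of those tested did not pass the test. Of 7 tested, 0 rose (0 at an unadjusted p under 0.05) and 3 fell, against 14.4% and 12.8% of all genes tested. Their median change was -0.31. Scaled on the median of all probes, 2 rose and 2 fell, against 50% and 1.54% of all genes, and the median of the 7 was -0.0062. The 3 were Lyz1, Ifi30, a lysosomal thiol reductase, at 8.18, 7.76 and 8.33 in DKO against 8.76 to 9.19 in controls (1.83-fold lower, limma, adjusted p = 0.00628), and the signalling adaptor Tyrobp at 4.74, 5.34 and 5.25 against 5.85 to 6.61 (2.14-fold lower, adjusted p = 0.00635), which was above background on 2 of the 3 DKO arrays. Ifi30 is also read in B cells and Tyrobp in natural killer cells. Scaled on the median of all probes, Ifi30 was at -0.21 and did not pass the test. Ccr2, Cd14, Fcgr1, Emb and Ms4a6c were not above background on any array.

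B-lineage genes moved on the same arrays. Of 7 tested, 0 rose (0 at an unadjusted p under 0.05) and 6 fell, against 14.4% and 12.8% of all genes tested. The mean level of the 7 tested genes was 5.13 to 5.58 on the DKO arrays and 6.90 to 7.79 on the control arrays. The surrogate light chain gene Vpreb1 was 6.88-fold lower (adjusted p = 0.00133) and Cd79b 4.35-fold lower (adjusted p = 0.00156). Vpreb3 (log2 change -3.50, adjusted p = 0.000183) and Mzb1 (-2.73, adjusted p = 0.000342) fell too, each above background on 1 of the 3 DKO arrays and 9.17-fold and 6.34-fold lower with dim values set to the background level, while Pax5 and Blnk were not above background on any array. The part of B-lineage cells in the falls of Lyz2, Lyz1 and the monocyte genes was not tested. Of T and natural killer cell genes 2 were tested and 1 was called, Il7r, lower in DKO, where 12.8% of all genes tested were called lower. Il7r was at least 1.59-fold lower (limma, adjusted p = 0.00932), but it was above background on no DKO array and so entered the test through the control arrays alone and had to be lower in DKO. Of 7 macrophage genes limma called 0 (0 at an unadjusted p under 0.05), with Cd163 at 0.35 (adjusted p = 0.19) and Marco at 0.27 (adjusted p = 0.376).

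Genes of mast cells, basophils and eosinophils, whose progenitors can fall near this gate, were mostly below background. Of 13 with a probe, 9 were above background on no array, among them Mcpt8, Prss34, Prg3 and Epx. Of the 3 tested, 2 rose and 0 fell, against 14.4% and 12.8% of all genes tested. Hdc, the histamine-forming enzyme, read 7.49, 6.62 and 7.13 in DKO and 5.19 to 5.85 in controls (3.01-fold, limma, adjusted p = 0.00175). The mast cell carboxypeptidase Cpa3 read 6.78, 6.14 and 6.91 against 6.25, 4.95, 5.69 and 5.79 (1.92-fold, adjusted p = 0.04). The call of Cpa3 was lost without DKO 1, DKO 3, Control 2, Control 3 or Control 4 (adjusted p = 0.0604 to 0.134). The mean level of the 3 tested genes was 6.13 to 6.56 in DKO and 5.18 to 6.14 in controls. The part of this list in the rises of Mpo and Ctsg was not tested.

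The genes of the gate gave few usable values. Kit had no probe. Fcgr3, 1 of the genes of CD16/32, was not above background on any array, at 4.62 to 4.79 in DKO and at most 4.60 in controls. Fcgr2b, the other, read 5.17 to 5.19 in DKO and was below background on each control array (adjusted p = 0.0305). It entered the test through the DKO arrays alone and so had to be higher there, its level was too close to background for a fold, and it had a direction that turned under scaling on the probes above background on all arrays (-0.06) and a call lost without Control 1, Control 3 or Control 4 (adjusted p = 0.055 to 0.0662). Cd34 read 4.91 to 5.12 in DKO and 5.04 to 5.69 in controls (change -0.37, adjusted p = 0.134). It was above background on 2 of the 3 DKO arrays and 3 of the 4 control arrays. In 2 alternatives Cd34 passed the test as lower in DKO. These were scaling on the probes above background on all arrays (limma, adjusted p = 0.00523) and leaving out Control 1 (0.0357). The part in these results of granulocyte-monocyte progenitors passing the gate was not tested.

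Of the transcription factors of the granulocyte-monocyte lineage, 10 were tested. Among the 10 tested, 2 rose and 0 fell (4 higher and 1 lower at an unadjusted p under 0.05). Over all genes tested, 14.4% were called higher and 12.8% lower. The counts of these factors moved with the scaling. Scaled on the median of all probes they were 6 higher and 0 lower, against 50% and 1.54% of all genes. Scaled on the probes above background on all arrays they were 1 higher and 3 lower, against 10.3% and 23.5%. Egr1, an immediate early factor, read 11.41, 10.97 and 11.45 in DKO and 9.58, 8.59, 8.19 and 9.07 in controls, a 5.35-fold rise (limma, adjusted p = 0.00104). Ets1 read 6.23, 5.74 and 5.80 in DKO and 4.77, 5.72, 5.01 and 5.05 in controls (1.72-fold, adjusted p = 0.0299). It was above background on all DKO arrays and 1 control array, and 1.45-fold higher with dim values set to the background level. The call was lost when any of DKO 1, DKO 3, Control 1, Control 3 or Control 4 was left out (adjusted p = 0.0589 to 0.113). It was also lost with no background correction, scaling on the probes above background on all arrays and the authors' processed values. The same held with no filter on dim probes, the brightness covariate and the replicate block. Spi1, which encodes PU.1, was above background on all DKO arrays and 1 control array, with a change of 0.38 (adjusted p = 0.206). Without Control 1 the change of Spi1 was 0.60 and passed the test (adjusted p = 0.0101). With dim values set to the background level its difference was -0.18. That level was itself lower on the DKO arrays, at 4.96 to 5.07 against 5.12 to 5.42 on the control arrays. A probe below background on every array, such as that of Nabp1, gets -0.24 by this step alone. The sign of the Spi1 difference therefore cannot be read from it. Cebpb, at 9.06 to 9.23 in DKO and 8.83 to 9.23 in controls, changed by 0.10 (adjusted p = 0.601), and Gfi1 by -0.17 (adjusted p = 0.58). Cebpe, which drives the specific granule genes, was not above background on any array, and the monocyte factor Irf8 was above background on 1 control array alone.

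Receptors gave a similar picture. Of 4 myeloid receptor and adhesion genes tested, 1 rose, where 14.4% of all genes tested were called higher. It was Cxcr4, at 8.78, 8.42 and 8.03 in DKO against 7.35 to 7.78 in controls (1.80-fold, limma, adjusted p = 0.0106). Csf3r, the receptor of granulocyte colony-stimulating factor, was above background on 1 control array alone on the probe read for it, at 4.61 to 4.95 in DKO and 4.62 to 5.12 in controls. Il6ra, Itgam, Cxcr2, Fpr2, Tlr4, Flt3 and Csf2rb2 were not above background on any array.

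Within the megakaryocyte-erythroid genes, the platelet integrin gene Itga2b (3.96-fold, limma, adjusted p = 0.00133) and Gata2 (3.04-fold, adjusted p = 0.000812) rose on the same arrays as Mpo and Plac8, and the red cell gene Hba-a1 was lower (2.49-fold, adjusted p = 0.00504). Slc4a1, the red cell anion exchanger, was lower too (log2 change -2.69, adjusted p = 0.0016), above background on 1 of the 3 DKO arrays and 6.04-fold lower with dim values set to the background level. Among 5 stem cell genes tested, Meis1 rose (2.40-fold, adjusted p = 0.0239), and Mllt3 (1.59-fold lower, adjusted p = 0.0245) and Mecom (1.43-fold lower, adjusted p = 0.0184) fell. That was 1 higher and 2 lower of the 5, against 14.4% and 12.8% of all genes tested. Calls were lost for Meis1 without DKO 1, DKO 2, Control 2 or Control 3 (adjusted p = 0.0517 to 0.0835), for Mllt3 without any 1 array but DKO 1 or Control 4 (0.0508 to 0.0837) and for Mecom without DKO 3 (0.0982). The call of Mecom was also lost with no background correction, scaling on the median of all probes, the authors' processed values, the variance trend, the brightness covariate and the replicate block. That of Meis1 was also lost with no filter on dim probes, the brightness covariate and the replicate block. Mllt3 also lost its call with scaling on the median of all probes, the mean of its probes and the brightness covariate. Scaled on the median of all probes, this list had 2 higher and 0 lower, against 50% and 1.54% of all genes.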

How the data were processed

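Progenitor RNA was read on MouseRef-8 v2.0 single-colour bead arrays, per the labels. GenomeStudio is named in the submitters' processing notes, with version and settings not given in the sources used here. Each array's probe signal, as the authors deposited it, is a linear intensity that was neither background-subtracted nor normalised between arrays, each beside a detection p-value. A series table deposited by the authors holds processed values in log2 units. Set against the signals it matched log2 values centred per probe (median r per probe 0.999972, slope of group differences 0.958, column medians 0.00164 to 0.00513), with the baseline of its centring unknown, and it served as an alternative.

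Signals were normalised with neqc of limma 3.58.1 in R 4.3.3 (background from the detection p-values, offset 16, quantile, log2). Of 25697 probes, 23978 had 1 symbol in the platform annotation, 0 several and 1719 none. No probe carried the older symbols Ela2 or Lyz. A probe was kept at a detection p under 0.05 on at least 3 arrays (10091 probes), and a gene took its kept probe with the highest mean (7547 genes). DKO and Control were compared with lmFit and eBayes, two-sided, adjusted by the Benjamini-Hochberg method at 0.05. The fit was tested on simulated data. Where a probe was above background on no array of a group, the fold was set against each array's lowest signal among detected probes. No slide or scan is given, so no batch could be tested.

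The members and gene lists were chosen with earlier results of these data known. Named beside the 10 members are the targeted genes, 12 fixed genes, of each list up to 4 called genes with the largest change (otherwise the 2 with the smallest p), and the 5 genes most like the azurophil mean. Alternatives changed the background correction, scaling, filter, probe choice, variance model and source table, added brightness or replicate number, and left out each array.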

Additional observations from a re-analysis of the deposited data

Results flagged for a closer look

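Each control group of 4 arrays was searched for an array far from the other 3, by Dixon's criterion, over 65 probes, the 15 of the members and 1 for each of 50 other genes. None of the 15 member probes met it, and 2 others did, where chance gives about 1 in 20 groups. Cd63, the granule membrane protein gene, was at 10.2 on Control 1 and at 9.08 to 9.25 on the other control arrays. Camp, the cathelicidin gene, was at 4.93 on Control 3 and at 6.42 to 6.57 on the other control arrays.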

How the results depend on the processing

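Of 150 values of the 9 tested members under alternatives, 134 kept their direction and their side of the threshold, 13 fell short of it, 3 passed it anew and 0 turned. As reported, 5 members were higher and 1 lower, 8 member probes were higher and 1 lower, and 2051 genes were changed. With array brightness as a covariate these became 0 and 0 members, 0 and 0 probes and 52 genes. With detection p under 0.01 required on all arrays, 0 members were lower, and 4 probes were higher and 0 lower, since fewer probes were tested. Scaling on the median of all probes gave 8 members higher and 3888 genes changed, and scaling on probes above background on all arrays gave 4 probes higher and 2 lower. Leaving out 1 array at a time gave 3 to 5 members higher, 1 to 1 lower, 3 to 8 probes higher, 1 to 2 lower and 1071 to 1943 genes changed (1155 without DKO 1, 1071 without DKO 3). Ms4a3 could not be tested without any 1 DKO array under the filter at 3 arrays. With a filter at 2 arrays, chosen after seeing the data, its change was 0.77 to 1.34 and passed each time. The replicate number as a block gave 1355 genes changed and 5 probes higher, and S100a8 was then not called (adjusted p = 0.0603). Same-numbered arrays deviated with r of -0.169, -0.016 and 0.0277, and differently numbered ones with r of -0.109 to 0.134. Deviations centred within groups of 3 and 4 arrays depend on one another, so these values cannot show whether the numbers pair the arrays. S100a8 was also not called with no filter (adjusted p = 0.0778) or with a variance trend (0.0812). Among 740 values of 45 other named genes, 627 kept their call, 84 fell short, 27 passed anew and 2 called values turned: Serpinb6a to 0.0307 with scaling on the median of all probes and Fcgr2b to -0.0646 with scaling on probes above background on all arrays. A further 12 values that passed in neither setting changed sign and are counted among the 627. Signals near background limit Lyz2, Ms4a3, Cebpa and the dim Mpo probes. Without background correction Mpo changed by 0.92, Ctsg by 0.97 and Ms4a3 by 0.35. The causes of these differences were not tested.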
